A study of Mus musculus with 16 samples.

Results

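The genes described are 9 whose products modify or work beside the coactivator PGC-1alpha, chosen by name, with no measured value in the rule: the deacetylase genes Sirt1 and Sirt3, the acetyltransferase gene Kat2a, the corepressor genes Nrip1 and Ncor1, the p160 coactivator genes Ncoa1, Ncoa2 and Ncoa3, and the Mediator subunit gene Med1. All 9 were found among the 16882 genes listed for both tissues. The mice were male C57BL/6, 10 weeks of age and housed at room temperature. One group carried an allele of Ppargc1a named uORF-TAA in homozygous form, and the other was its wild-type littermates (uORF stands for upstream open reading frame). Stranded mRNA sequencing covered quadriceps and brown adipose tissue, each with 4 uORF-TAA and 4 wild-type libraries, which makes 16. The labels do not say how the allele was made, or whether a mouse gave 1 tissue or both.

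PGC-1alpha, the product of Ppargc1a, does not bind DNA itself. It docks on nuclear receptors and other transcription factors and recruits histone acetyltransferases and the Mediator complex to their target genes. Its activity is set by modification and by competing proteins: SIRT1 removes acetyl groups from it, GCN5 adds them, and corepressors such as RIP140 and NCoR1 act on many of the same receptors to silence the genes that it switches on. In muscle and brown fat these proteins bear on mitochondrial content, fatty acid oxidation and heat production.

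Each tissue had 1 table of the authors' comparison, with a mean normalized count over its 8 libraries and a log2 fold change. Values of single libraries were not analysed here. Fold changes are uORF-TAA over wild type, taking the genotype named first by a table as its numerator, and ± values on them are the deposited standard errors. Estimated depth per library spanned about 11400000 to 31800000 counts in quadriceps and 11000000 to 17800000 in brown fat. The labelled tissues carried their defining markers. Ucp1, the uncoupling protein of brown adipocytes, had a mean normalized count of 47561 in brown fat and 6.70 in quadriceps. The 5 skeletal muscle markers (Ckm, Acta1, Myh4, Mb and Tnnt3) were not absent from brown fat, where their summed level was 4.58% of that in quadriceps, taken as CPM, the mean count per 1000000 of a table's summed mean counts. The 7 fat markers together stood in quadriceps at 1.84% of their brown fat level.

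No genotype difference passed the test for any of the 9 mRNAs in either tissue. The authors' DESeq2 test called 0 of 9 in quadriceps at the 0.05 level after adjustment, against a background of 0.00% of the 17521 genes tested. In brown fat 0 of the 8 that had an adjusted p passed, against 0.0863% of 9272 genes, and the ninth, Nrip1, lay below the mean count at which the table gives one. At an unadjusted p under 0.05 the count was again 0 of 9 in each tissue, where 2.00% of all genes in quadriceps and 2.07% in brown fat had such a p. Their log2 fold changes in the authors' deposited table lay between -0.13 and 0.14 in quadriceps and between -0.11 and 0.06 in brown fat. Their levels in the tissues are described first.

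Levels were compared between genes as CPM per kilobase of exon. In quadriceps Ncor1 stood first at 23.1, followed by Med1 at 7.48, Ncoa1 at 6.33, Sirt1 at 6.09, Ncoa2 at 5.81, Ncoa3 at 5.44, Kat2a at 4.66, Nrip1 at 4.32 and Sirt3 at 3.58. Apart from Ncor1 the quadriceps levels thus lay close together, and all 9 exceeded the median gene. In brown fat the order was Sirt3 at 28.9, Ncor1 at 18.6, Kat2a at 11.0, Ncoa1 at 10.2, Sirt1 at 7.54, Ncoa3 at 7.30, Med1 at 5.22, Ncoa2 at 3.79 and Nrip1 at 0.338 CPM per kilobase. Sirt3 went from the last place in quadriceps to the first in brown fat, and Nrip1 was the only one of the 9 below the median gene there. The level and place of Sirt3 rest on an exon length of 1724 bases. The annotation used below for exon overlap gives it 5973 exon bases, and longer lengths for the other members too. Among them are Ncoa2 (15642 against the 8524 used) and Nrip1 (11457 against 8049). Levels with those lengths were not computed, so the orders, and the first place of Sirt3 in brown fat, hold only for the lengths used. The tables give no spread of a level over libraries, so no neighbours in these orders can be called different. PGC-1alpha's own mRNA, Ppargc1a, stood at 4.44 in quadriceps and 10.8 in brown fat on the same scale, within the range of its partners. The authors' deposited table lists Ppargc1a at a log2 fold change of 0.06 ± 0.13 (SE; p = 0.646) in quadriceps and 0.0016 ± 0.11 (SE; p = 0.988) in brown fat, so its mRNA did not pass either.

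**Figure D1:**
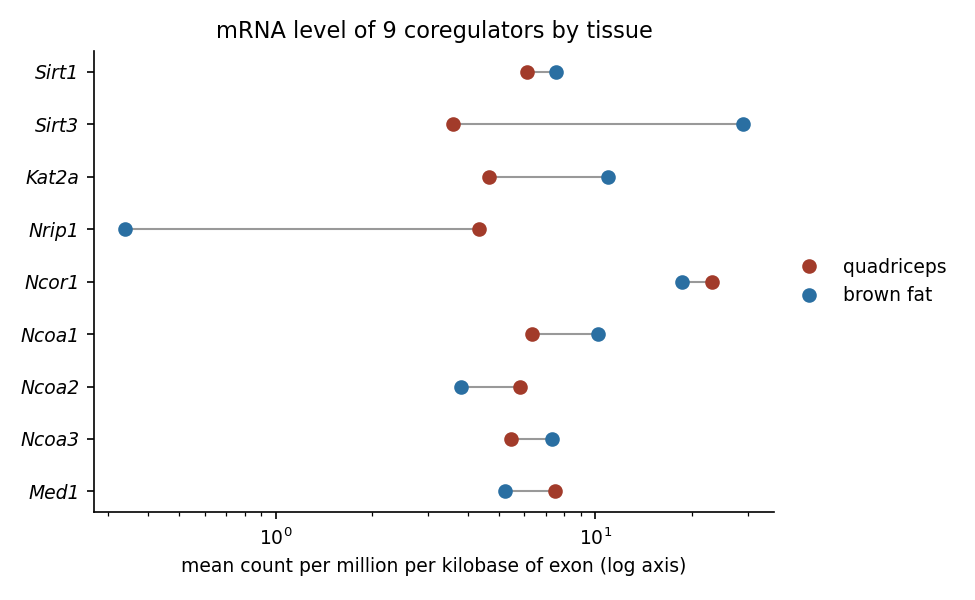
Level of each of the 9 mRNAs as CPM per kilobase of exon (log axis; CPM, mean count per 1000000), in quadriceps (red) and brown fat (blue), each point being the mean over 8 libraries with no error available. Sirt3 (3.58 and 28.9) and Nrip1 (4.32 and 0.338) are the only widely separated pairs, and they differ in opposite directions.

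Between the tissues the contrast was largest for Nrip1 and Sirt3. The tables were normalized separately, so these ratios are descriptions without a test, and in whole tissue fewer cells of a type and less RNA per cell cannot be told apart. Nrip1 was 12.8-fold lower in brown fat than in quadriceps by CPM. Of the 11197 genes whose mean reached 50 in either tissue, 2.03% had a lower ratio. Nrip1 entered that set through quadriceps only, the tissue where it is high, so its place there depends in part on the filter. Sirt3 was 8.07-fold higher in brown fat, a ratio that exceeded that of 88.4% of the genes. Kat2a was 2.36-fold higher in brown fat, while Ncoa2, Med1 and Ncor1 were 1.53-, 1.43- and 1.24-fold higher in quadriceps. The 5 muscle markers alone took up 159540 of every 1000000 counts in quadriceps and 7312 in brown fat, and the median ratio of the 9282 genes whose mean reached 50 in both tissues was 1.88-fold (0.91 on the log2 scale) towards brown fat. Relative to that median gene Nrip1, itself outside the 9282 genes, was 24.0-fold lower and Sirt3 4.29-fold higher in brown fat. Sirt1, Ncoa1 and Ncoa3 changed side, going from 1.24-, 1.61- and 1.34-fold by CPM down to 0.658-, 0.860- and 0.715-fold. The muscle markers seen in brown fat stood there at 3.27% (Myh4) to 24.5% (Mb) of their quadriceps level, beside 7.83% for Nrip1. The part of muscle RNA in the brown fat level of Nrip1 was not tested. The gene model behind the Nrip1 count was not checked here either, so its level and contrast hold for the exons that were counted.

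**Figure D2:**
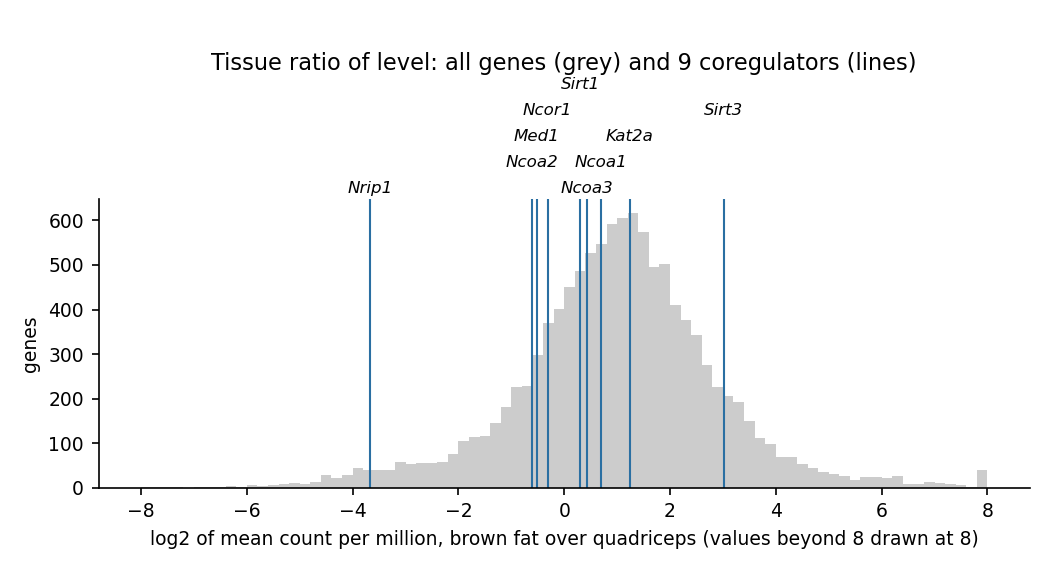
Distribution over 11197 genes of the log2 ratio of CPM, brown fat over quadriceps (grey, number of genes per bin), with the 9 coregulators as blue lines. Nrip1 lies in the lower tail at -3.68 and Sirt3 towards the upper end at 3.01, while the other 7 lie between -0.62 and 1.24.

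SIRT1 is a nuclear deacetylase that depends on NAD and is the best known activator of PGC-1alpha by deacetylation. Its mRNA had a mean normalized count of 568 in quadriceps and 428 in brown fat. In the authors' deposited table its log2 fold change was -0.09 ± 0.13 (SE; p = 0.478) in quadriceps, with a 95% interval from -0.36 to 0.17. Brown fat gave -0.11 ± 0.10 (SE; p = 0.294) in the authors' deposited table, with an interval from -0.31 to 0.10. Sirt1 thus lay below 0 in both tissues, each time by about 1 standard error or less. Its deposited standard error in quadriceps exceeded that of 92.0% of the 200 genes nearest in mean count.

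SIRT3 is the main deacetylase of the mitochondrial matrix, and its gene is a known target of PGC-1alpha acting with the orphan receptor ERRalpha. Its mean normalized count was 130.0 in quadriceps, the lowest of the 9 there, and 639 in brown fat. A log2 fold change of 0.14 ± 0.12 (SE; p = 0.266) in quadriceps, the highest of the 9, stood in the authors' deposited table, with a 95% interval from -0.11 to 0.38. Brown fat, by the authors' deposited table, gave -0.00068 ± 0.11 (SE; p = 0.995), with an interval from -0.21 to 0.21. In brown fat, where the gene is most abundant, the estimate was therefore centred on 0. Exons of Sirt3 share 342 bases with Psmd13, a proteasome subunit gene on the other strand, in the GENCODE M21 annotation, and 418 bases with Ric8a. Whether the counting used strand is not stated in the labels or headers, and the Sirt3 count is uncertain to that extent. The same holds for 4 other members that share exon bases with a gene on the other strand: Ncoa3 (154 with Sulf2), Ncor1 (82 with Pigl), Ncoa1 (68) and Sirt1 (65). Psmd13 itself was 1.47-fold higher in brown fat by CPM, and no level of Ric8a was available. The part of either gene in the Sirt3 count was not tested.

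The start regions of the members were searched for sites of factors that PGC-1alpha works with or responds to, in the 250 bases before each RefSeq start (GRCm38.p6, found for 7 of the 9 genes and 10 starts). Both strands were read for the ERR response element TNAAGGTCA, the palindromic NRF-1 site, the ETS site CCGGAAG that GABP binds, the cAMP response element TGACGTCA and the E-box CACGTG. Across all 32851 RefSeq windows these letters occurred in 1.14%, 3.74%, 6.91%, 1.55% and 6.02%. The 3 member windows with a match are shown in part with the match in capitals, beside 1 of the 2 windows of Nrip1, the gene that differed most between tissues; none of the 5 was found in either.
Sirt1, chr10:63339066-63339165, minus strand: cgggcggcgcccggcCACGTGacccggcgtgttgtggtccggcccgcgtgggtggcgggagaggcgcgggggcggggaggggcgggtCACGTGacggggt
Sirt3, chr7:140882377-140882406, minus strand: agtgctcgctcaCTTCCGGcaccgcgggcg
Ncor1, chr11:62457368-62457397, minus strand: ctccccaaccctCCGGAAGgaggaggagcc
Nrip1, chr16:76373828-76374077, minus strand: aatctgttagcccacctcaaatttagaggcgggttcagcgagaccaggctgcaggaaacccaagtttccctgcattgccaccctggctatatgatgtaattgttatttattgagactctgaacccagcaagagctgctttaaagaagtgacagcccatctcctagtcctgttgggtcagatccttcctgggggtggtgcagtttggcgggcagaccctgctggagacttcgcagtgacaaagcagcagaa
Sirt1 held the E-box at 2 places, which do not overlap, and Sirt3 and Ncor1 each held 1 ETS site, that of Sirt3 on the opposite strand and inside an exon of Psmd13. No ERR response element was found in any of the 10 windows, which says only that these letters are not within 250 bases of the starts. The Nrip1 window shown held 4 CpG dinucleotides and was 51.2% G and C, near the 52.4% median of all windows. The second Nrip1 window held 32 CpG at 73.6% G and C, and that of Sirt1 held 39 at 79.2%. A letter match is no measure of binding.

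GCN5, the product of Kat2a, is the acetyltransferase that modifies PGC-1alpha and lowers its activity, the counterpart of SIRT1. Kat2a had a mean normalized count of 298 in quadriceps and 428 in brown fat. In quadriceps the authors' deposited table listed a log2 fold change of -0.13 ± 0.13 (SE; p = 0.297), the lowest of the 9, with a 95% interval from -0.38 to 0.12. In brown fat the authors' deposited table listed -0.02 ± 0.10 (SE; p = 0.848), with an interval from -0.22 to 0.18. Sirt1 and Kat2a thus both lay below 0 in both tissues without passing the test. Ncoa3 was the third gene below 0 in both, none of the 9 lay above 0 in both, and the other 6 had opposite signs. With the brown fat sign as deposited, these 3 would be opposite, Sirt3, Nrip1, Ncoa1 and Ncoa2 would be the 4 above 0 in both, and Ncor1 and Med1 the 2 below.

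RIP140, the product of Nrip1, is a ligand-dependent corepressor of nuclear receptors that holds down oxidative genes in fat and muscle. Its mean normalized count was 732 in quadriceps and 34.9 in brown fat, the latter amounting to about 279 normalized counts over all 8 libraries. The quadriceps log2 fold change was 0.10 ± 0.13 (SE; p = 0.439) in the authors' deposited table, with a 95% interval from -0.15 to 0.35. In brown fat it was -0.06 ± 0.12 (SE; p = 0.604) in the authors' deposited table, with an interval from -0.31 to 0.18. That table gives an adjusted p only from a mean of 106 upwards, so Nrip1 was not among the genes adjusted there.

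NCoR1 is the corepressor that brings the deacetylase HDAC3 to nuclear receptors, and in muscle it opposes oxidative metabolism. Ncor1 was the most abundant of the 9 by count, with a mean normalized count of 5438 in quadriceps and 2669 in brown fat. Its log2 fold change in the authors' deposited table was -0.0043 ± 0.10 (SE; p = 0.966) in quadriceps, with a 95% interval from -0.20 to 0.19. The brown fat value was 0.06 ± 0.09 (SE; p = 0.465) in the authors' deposited table, with an interval from -0.11 to 0.24, the highest estimate of the 9 in that tissue. Both corepressors therefore had small values of opposite sign in the tissues.

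The p160 coactivators SRC-1, SRC-2 and SRC-3, encoded by Ncoa1, Ncoa2 and Ncoa3, bind liganded nuclear receptors and bring in acetyltransferases and methyltransferases. SRC-1 favours energy expenditure and SRC-2 fat storage in mouse knockouts, and SRC-3 has been linked to PGC-1alpha acetylation through GCN5. Ncoa1 had a mean normalized count of 976 in quadriceps and 961 in brown fat, which correspond to 46.4 and 74.9 CPM because the tables differ in their totals. Its log2 fold changes in the authors' deposited table were 0.0073 ± 0.10 (SE; p = 0.939) and -0.04 ± 0.10 (SE; p = 0.725). The 95% intervals were -0.18 to 0.19 for quadriceps and -0.23 to 0.16 for brown fat.

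Ncoa2 had a mean normalized count of 1042 in quadriceps and 414 in brown fat. For it the authors' deposited table listed 0.04 ± 0.11 (SE; p = 0.731) in quadriceps and -0.09 ± 0.11 (SE; p = 0.431) in brown fat. Ncoa3, at 862 and 705, was listed at -0.07 ± 0.09 (SE; p = 0.434) and -0.0059 ± 0.12 (SE; p = 0.962) in the authors' deposited table. The 95% intervals of Ncoa2 were -0.17 to 0.24 for quadriceps and -0.31 to 0.13 for brown fat, and those of Ncoa3 were -0.24 to 0.10 and -0.25 to 0.23. The deposited standard error of Ncoa3 ranked differently in the tissues. Of the 200 genes nearest in mean count, 4.0% had a smaller one in quadriceps, against 87.0% in brown fat. Of the 3 coactivators, 2 lay above 0 in quadriceps and 0 in brown fat, all within 1 standard error of 0.

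MED1 is the Mediator subunit that nuclear receptors contact directly, and it links PGC-1alpha to RNA polymerase II. Med1 had a mean normalized count of 1286 in quadriceps and 547 in brown fat. The log2 fold change in the authors' deposited table was -0.08 ± 0.11 (SE; p = 0.467) in quadriceps, with a 95% interval from -0.29 to 0.13. In brown fat the authors' deposited table held 0.0083 ± 0.09 (SE; p = 0.926), with an interval from -0.17 to 0.18. Among the 200 genes nearest in mean count in brown fat, 12.5% had a smaller deposited standard error.

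**Figure D3:**
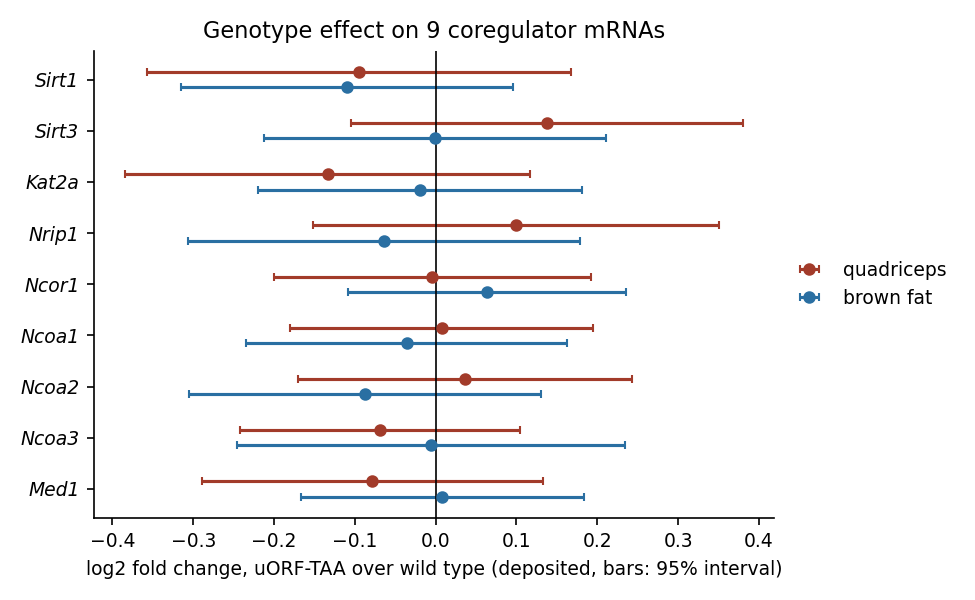
Deposited log2 fold change of the 9 mRNAs, uORF-TAA over wild type, in quadriceps (red) and brown fat (blue); bars are 95% intervals from the deposited standard errors, with 4 libraries per genotype. Every interval crosses 0, and the estimates lie between -0.13 and 0.14.

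The median log2 fold change of the 9 genes was -0.0043 in quadriceps, with 4 of 9 above 0, beside a median of 0.0024 and 51.7% above 0 over all 17521 genes. In brown fat the median of the 9 was -0.02, with 2 of 9 above 0, beside 0.0015 and 51.2% over all 17973 genes. Without regard to sign the median size was 0.08 in quadriceps and 0.04 in brown fat, against 0.06 and 0.05 for genes with a mean of 50 or more. These fold changes behave as shrunken towards 0. If they follow DESeq2's ridge formula, each value has 2 unshrunken solutions, and a single gene's row cannot tell them apart. A small deposited standard error is then no measure of precision. The unshrunken standard error would be 0.10 or 0.72 for Ncoa3 and 0.24 or 0.31 for Sirt1, both in quadriceps. With the smaller standard error, the 95% intervals of the 9 would lie within 0.645- to 1.46-fold in quadriceps and 0.709- to 1.29-fold in brown fat. With the larger one they would reach 0.255- to 2.498-fold in quadriceps and 0.362- to 3.28-fold in brown fat.

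The effect of genotype was then compared between tissues on the deposited fold changes and standard errors. Since these behave as shrunken, the intervals below hold for the shrunken values only, and no unshrunken version was run. No difference passed: 0 of 9 reached an adjusted p of 0.05, against a background of 0.00% of 16844 genes. At an unadjusted p under 0.05 the count was 0 of 9, against 1.16% of all genes. That share is below the nominal level of 0.05, so the test was conservative and could miss differences. The largest difference, quadriceps less brown fat, was that of Nrip1 at 0.16 ± 0.18 (SE), with a 95% interval from -0.19 to 0.51. Sirt3 followed at 0.14 ± 0.16 (SE; -0.18 to 0.46) and Ncoa2 at 0.12 ± 0.15 (SE; -0.18 to 0.42). Sirt1 had a difference of 0.01 ± 0.17 (SE) and an interval from -0.32 to 0.35. This order rests on the assumed numerator: with the brown fat sign as deposited, Sirt1 came first at -0.20 ± 0.17 (SE), then Kat2a at -0.15, and Nrip1 was at 0.03. The adjusted p was 1.00 for all 9 under either reading.

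Other sirtuins, deacetylases, corepressors, acetyltransferases, coactivators, Mediator subunits and NAD genes were examined as lists, 84 genes with the 9 included. None passed after adjustment in either tissue, and 3 in quadriceps and 2 in brown fat had an unadjusted p under 0.05, or 3.57% and 2.38%, beside 2.00% and 2.07% of all genes. Of the 7 sirtuins 3 lay above 0 in quadriceps and 2 in brown fat, and 0 had an unadjusted p under 0.05. Sirt7, a nucleolar sirtuin, was at -0.21 ± 0.13 and the mainly cytosolic Sirt2 at -0.13 ± 0.10 in quadriceps in the authors' deposited table. In brown fat Sirt6 was at 0.09 and Sirt2 at -0.0079, again by the authors' deposited table. Of the 11 classical histone deacetylases, Hdac11 had the smallest p, with 0.32 ± 0.13 (p = 0.0147) in quadriceps in the authors' deposited table and an adjusted p of 1.00. HDAC3, the catalytic partner of NCoR1, had log2 fold changes of -0.05 and 0.02 for its gene Hdac3 in the authors' deposited table, a gene outside the naming rule and chosen after its values were seen.

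No partner of NCoR1 passed. In the 6-gene NCoR/SMRT complex 2 lay above 0 in quadriceps and 3 in brown fat, and 0 had an unadjusted p under 0.05 in either. Tbl1x and Tbl1xr1, which encode the WD-repeat subunits of the complex, were at 0.10 and -0.11 in quadriceps and at -0.14 and -0.12 in brown fat in the authors' deposited table. Among 7 other nuclear receptor corepressors, Nrip1 included, Lcor was the one gene with an unadjusted p under 0.05, at 0.28 ± 0.13 (p = 0.0372) in quadriceps in the authors' deposited table, with an adjusted p of 1.00. Lcor encodes a ligand-dependent corepressor, and its mean normalized count there was 99.4. Of the 5 acetyltransferases 2 lay above 0 in quadriceps and 1 in brown fat, and the p300 gene Ep300 was at 0.05 and 0.04 in the authors' deposited table. Kat5, the TIP60 gene, was at -0.10 in quadriceps and -0.14 in brown fat, by the authors' deposited table. The methyltransferase genes Prmt1 and Carm1, whose products work with the p160 proteins, were at 0.07 and -0.03 in quadriceps and at 0.10 and -0.0023 in brown fat in the authors' deposited table.

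Mediator, with 33 measured genes, lay on both sides of 0. In quadriceps 16 lay above 0, with a median of -0.0059, and in brown fat 19, with a median of 0.02. Med26, a subunit that recruits elongation factors, was at -0.30 ± 0.12 (p = 0.0143) in quadriceps in the authors' deposited table. Med30 was at 0.21 ± 0.10 (p = 0.0381) in brown fat in the authors' deposited table, and both had an adjusted p of 1.00. Genes of NAD supply and consumption, on which sirtuin activity depends, had 8 of 11 above 0 in quadriceps and 3 of 11 in brown fat. Cd38, which encodes an NAD-degrading enzyme of immune and other cells, was at -0.25 ± 0.12 (p = 0.0357) in brown fat and -0.18 ± 0.13 (p = 0.169) in quadriceps in the authors' deposited table, with an adjusted p of 1.00 in both. Metabolic genes known to be repressed by RIP140 had 6 of 7 above 0 in brown fat, with a median of 0.08. In quadriceps 4 of 7 lay above 0, with a median of 0.02. That median is the value of Ucp1, a gene with a mean normalized count of only 6.70 there. Over all genes 51.2% lay above 0 in brown fat and 51.7% in quadriceps. Every brown fat direction of these lists rests on the assumed numerator. Ucp3, a mitochondrial carrier, was at 0.33 ± 0.08 in brown fat in the authors' deposited table (adjusted p = 0.0744), and none of the 7 passed. The 7 fat markers, of which Ucp1 and Cidea are also in that list, lay above 0 in brown fat in 7 of 7 cases with a median of 0.09, and 0 of them passed. The largest was Ppara, a fatty acid-sensing nuclear receptor, at 0.41 ± 0.12 (p = 0.00066, adjusted p = 0.321) in the authors' deposited table. Their part in the values of the list was not tested.

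**Figure D4:**
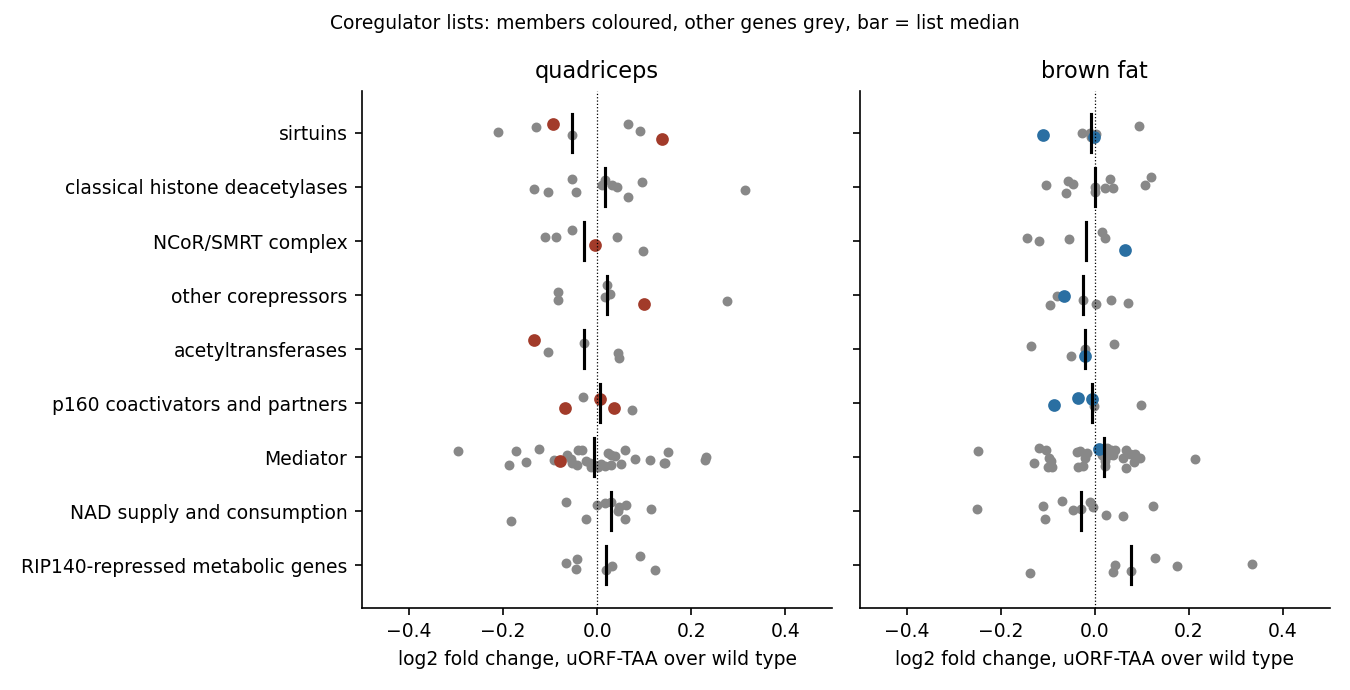
Deposited log2 fold change, uORF-TAA over wild type, of the measured genes of 9 lists in quadriceps (left) and brown fat (right); each point is 1 gene, coloured for the 9 coregulators and grey for others, and the black bar is the list median. List medians lie between -0.05 and 0.08, and no point passed an adjusted p of 0.05.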

How the data were processed

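The members and lists were chosen with earlier results of these data known. STAR 2.5.1b, DESeq2 1.10.1 and mm9 appear in the submitters' processing notes; for annotation and read counter, none was given in the sources used here. Per the file headers, the authors deposited for each gene a mean normalized count (a signal over 8 libraries), a log2 fold change with its standard error, a Wald score, a p-value and an adjusted p-value. Deposited scores, p-values and adjustments were recomputed from the deposited columns to rounding. The authors' deposited DESeq2 test, adjusted over the whole table, is the test used. The labels give 4 libraries per genotype and tissue and number them, but name no litter or extraction day.

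Brown fat fold changes were multiplied by -1, since that table names wild type first. The standard error falls at low counts (median 0.0223 in quadriceps and 0.0181 in brown fat under a mean of 1), the basis for calling fold changes shrunken. Levels used the union of GENCODE M21 basic exons (GRCm38, names only), found for 99.0% and 98.9% of genes. Depth came from genes with 1 read in 1 library. Intervals are 95% normal intervals. The tissue difference of the deposited fold changes was tested by a two-sided normal test on their combined deposited standard error. It treated tissues as independent and used Benjamini-Hochberg adjustment. Named genes are the 9, Ppargc1a, the markers and, per list and tissue, up to 3 others of smallest p with a mean of at least 50. Procedures were tested on simulated data, which for the unshrunken values held only cases of the smaller standard error. Python 3.11.15, pandas 2.3.3 and scipy 1.17.1 were used.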

Additional observations from a re-analysis of the deposited data

How the results depend on the processing

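The counts of coregulators passing the test, 0 of 9 in quadriceps, in brown fat and for the tissue difference, stayed 0 with adjustment over every gene with a p-value, over genes whose mean reached 10, at an adjusted p of 0.1, at an unadjusted p of 0.05, with centring on the median gene, and with the sign of brown fat left as deposited, wherever each applied. Over all genes the calls went from 0 to 2 in quadriceps at an adjusted p of 0.1, and from 0 to 6 for the tissue difference with the brown fat sign left as deposited. In brown fat they went from 8 to 11 at an adjusted p of 0.1 and from 8 to 6 with adjustment over every gene with a p-value. All 36 alternative fold changes of the 9 genes (centred, or unshrunken with the smaller standard error) kept their direction. For the unshrunken ones this was fixed in advance, because the back-calculation cannot change a sign. Relative to the median gene the log2 brown fat over quadriceps level turned to -0.60 for Sirt1, -0.22 for Ncoa1 and -0.48 for Ncoa3. This follows from the construction of that scaling, which was chosen after seeing the data, as was the longest-transcript length. Under that length 0 ranks changed, but for Sirt3 it is 1606 bases, near the 1724 used. If the assumed numerator is wrong in a tissue, every direction there turns over. No paired analysis was possible because the tables hold no values per library, and for the same reason leaving out replicates was not run.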
